A study of Mus musculus with 16 samples.

Results

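The set examined here comprises 8 genes of the complement system: the 3 C1q chain genes C1qa, C1qb and C1qc, the components C3, C4b and Cfb, and the anaphylatoxin receptor genes C3ar1 and C5ar1. Members were taken by gene symbol, and the list was chosen with earlier results of these data known. Of the 8 symbols, 7 were among the 13733 genes examined, and C4b was not analysed here. All 7 exceeded 1 CPM (normalised read count scaled to a common library size) in at least 4 of the 16 libraries, the condition for testing, which 13173 genes met.

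Bulk RNA-seq was performed on knee joint cells from male C57BL/6J mice (WT) and from Trem2-/- mice (C57BL/6J-Trem2em2Adiuj/J), a whole-body knockout of a lipid-sensing receptor of macrophages. Both genotypes were examined uninjured (D0) and 7 days after rupture of the anterior cruciate ligament by a single non-invasive compression of the tibia at 10 weeks of age (D7), with 4 mice in each of the 4 groups. The sample labels give an age of 16 weeks and an extraction from homogenised whole joints of control and diabetic mice, whereas the study's methods describe cells released from the joint. The starting material is therefore not certain. Libraries held between 11567073 and 32867818 assigned reads, with a median of 16399898. Fibroblast and synovial lining markers summed to 8499 to 56070 CPM in the 8 D0 libraries and 85590 to 153400 CPM in the 8 D7 libraries, whereas neutrophil markers summed to 14740 to 44520 CPM and 4460 to 14530 CPM. The values here are thus from mixed cells whose marker levels moved with injury, and fewer cells of a type and less RNA per cell cannot be told apart in bulk samples.

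Complement is a cascade of plasma and tissue proteins that tags microbes and cell debris. C1q, built from the A, B and C chains, starts the classical route and is made in tissues mainly by macrophages. All routes meet at C3, whose cleavage gives the C3a fragment sensed by the C3ar1 receptor, and later steps give C5a, sensed by C5ar1 on neutrophils, monocytes and macrophages. Cfb supplies the protease of the alternative route, which amplifies C3 cleavage. In the joint, complement products are known from synovial fluid and cartilage in arthritis.

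The 3 C1q genes lie side by side on the minus strand of chromosome 4 (GRCm38, GENCODE M21): C1qb at chr4:136880129-136886187, C1qc at chr4:136889804-136893065 and C1qa at chr4:136895917-136898803. The cluster spans 18675 bases, with gaps of 3616 and 2851 bases between neighbours. C3 lies at chr17:57203970-57228136, Cfb at chr17:34856374-34862518, C3ar1 at chr6:122847138-122856161 and C5ar1 at chr7:16246743-16259540, all on the minus strand. Cfb lies 85 bases from its neighbour C2, and 2246 of its 2825 exon bases belong also to Gm20547, an annotated gene that joins C2 and Cfb. Of the 75-base stretches of Cfb transcripts, 69.9% occur in Gm20547, so Cfb and C2 counts depend on how such reads were assigned and are uncertain. None of the other 6 members shared a 75-base stretch with another gene.

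Promoters from 250 bases before to 50 bases after the RefSeq start (GRCm38.p6) were at hand for 5 of the 7 members. They are shown because C1qb, C1qc and C3ar1 had higher, and C3 and C5ar1 lower, levels at D7. Capitals mark matches, on either strand, to a PU.1 core (GAGGAA), a C/EBP motif (TTNNGNAA), an AP-1 motif (TGANTCA) or an IRF motif (GAAANNGAA). PU.1, C/EBP and IRF proteins are transcription factors of myeloid cells, and AP-1 is induced by many stimuli.
C1qb (chr4:136886151-136886450, minus strand): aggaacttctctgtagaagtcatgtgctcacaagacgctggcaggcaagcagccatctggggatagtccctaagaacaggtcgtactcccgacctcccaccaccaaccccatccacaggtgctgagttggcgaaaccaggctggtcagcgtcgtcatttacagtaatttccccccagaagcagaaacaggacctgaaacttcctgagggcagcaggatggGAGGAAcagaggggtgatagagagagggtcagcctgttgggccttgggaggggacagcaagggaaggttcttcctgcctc
C1qc (chr4:136892865-136893164, minus strand): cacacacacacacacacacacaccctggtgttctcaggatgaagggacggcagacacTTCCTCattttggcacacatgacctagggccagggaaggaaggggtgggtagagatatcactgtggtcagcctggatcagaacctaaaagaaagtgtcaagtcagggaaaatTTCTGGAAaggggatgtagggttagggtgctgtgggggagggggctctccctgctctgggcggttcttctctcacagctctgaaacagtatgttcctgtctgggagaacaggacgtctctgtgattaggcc
C3ar1 (chr6:122856108-122856407, minus strand): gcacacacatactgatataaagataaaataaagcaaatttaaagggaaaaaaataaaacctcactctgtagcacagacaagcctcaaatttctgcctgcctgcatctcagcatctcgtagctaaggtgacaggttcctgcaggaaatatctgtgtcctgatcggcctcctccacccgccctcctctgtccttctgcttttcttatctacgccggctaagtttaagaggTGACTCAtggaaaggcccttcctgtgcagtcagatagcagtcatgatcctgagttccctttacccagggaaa
C3 (chr17:57228087-57228386, minus strand): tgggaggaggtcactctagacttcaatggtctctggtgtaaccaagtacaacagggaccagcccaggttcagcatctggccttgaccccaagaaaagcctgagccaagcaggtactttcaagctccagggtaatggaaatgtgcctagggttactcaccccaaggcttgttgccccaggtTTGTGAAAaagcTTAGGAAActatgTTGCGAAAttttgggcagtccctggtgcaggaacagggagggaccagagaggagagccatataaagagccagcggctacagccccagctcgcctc
C5ar1 (chr7:16259289-16259588, minus strand): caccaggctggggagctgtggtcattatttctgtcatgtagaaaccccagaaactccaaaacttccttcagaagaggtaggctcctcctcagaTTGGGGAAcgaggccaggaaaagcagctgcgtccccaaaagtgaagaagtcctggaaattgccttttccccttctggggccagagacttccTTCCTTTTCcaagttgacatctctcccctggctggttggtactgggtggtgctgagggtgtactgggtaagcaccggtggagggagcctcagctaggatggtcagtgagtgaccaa
Both C1q promoters held a PU.1 core, which begins at -30 from the start in C1qb and at -193 in C1qc. The C3 promoter held 3 C/EBP matches close together, at -70, -58 and -45. C3ar1 held an AP-1 match at -22, C5ar1 a C/EBP match at -157 and an IRF match at -66, and C1qc a C/EBP match at -81. An NF-kB motif (GGGANTTCC) had no match in these 5 windows. Among 32851 promoters of the same length, 28.3% held the PU.1 core, 40.7% the C/EBP motif, 7.81% the AP-1 motif, 8.56% the IRF motif and 1.68% the NF-kB motif. These matches are descriptions of the letters, and no binding was measured.

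Trem2 itself was examined first. Its mean was 4.56 CPM ± 1.40 (SD, n = 4) in WT D0, 16.8 ± 5.08 in WT D7, 1.80 ± 0.713 in Trem2-/- D0 and 4.27 ± 0.644 in Trem2-/- D7. The gene was lower in Trem2-/- joints at D7 by a log2 fold change of -1.72 (SE 0.25, adjusted p = 0.0503), with no overlap between the 4 and 4 libraries. At D0 the difference was -0.98 (SE 0.25), with overlapping libraries. Reads of Trem2 remained in the Trem2-/- libraries, and read counts do not measure the protein.

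Differences between groups were tested with limma on log2(CPM + 1). A gene was called changed at an unadjusted p below 0.05 where the larger level exceeded the smaller by more than 25%, the rule the study used. Adjusted p-values are Benjamini-Hochberg values over the 13173 genes, and fold changes on this scale understate changes of low genes such as C1qb.

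After injury, the 3 C1q genes and C3ar1 were higher, and C3 and C5ar1 lower, in both genotypes, while Cfb did not pass the test in either. In WT joints 4 of the 7 members were called higher and 2 lower, where 19.3% of all genes tested were called higher and 18.2% lower. In Trem2-/- joints the counts were again 4 higher and 2 lower, where 26.5% of all genes were called higher and 27.9% lower. By adjusted p below 0.05, 5 members passed in WT joints, where 28.5% of all genes did, and 6 in Trem2-/- joints, where 53.2% did. Libraries of D0 and D7 did not overlap for 5 members in WT joints, against 22.2% of all genes, and for 6 in Trem2-/- joints, against 52.4%. The median log2 fold change over the 7 members was 2.10 in WT and 1.97 in Trem2-/- joints, beside -0.04 over all genes in each. Each member median is the value of C1qc. Members ran from -1.06 to 2.25 in WT and from -1.97 to 2.23 in Trem2-/- joints.

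**Figure D1:**
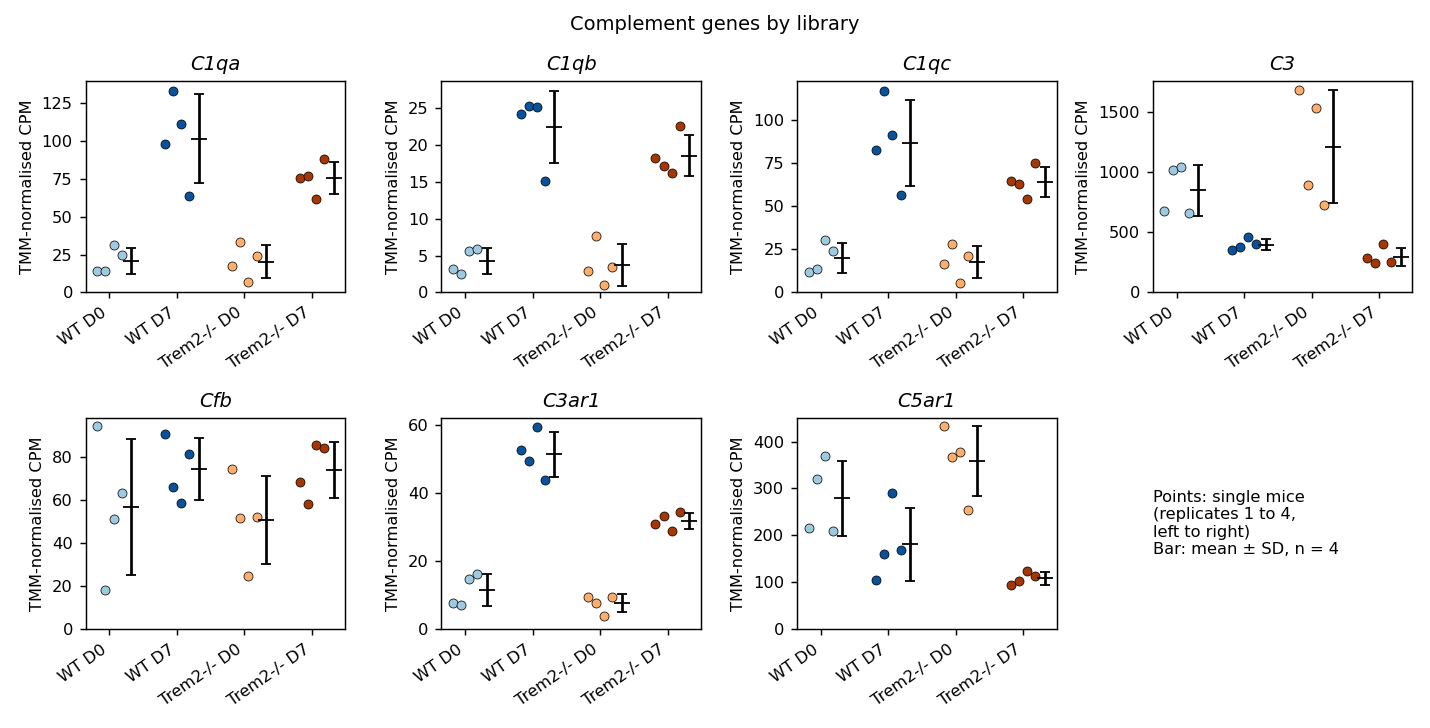
Level of each complement gene in CPM (y axis, from 0) in the 4 groups (x axis). Points are single mice, replicates 1 to 4 from left to right, and bars give the mean ± SD of 4 mice. The C1q genes and C3ar1 sit higher at D7 than at D0 in both genotypes, C3 sits lower, C5ar1 overlaps between D0 and D7 in WT but not in Trem2-/- joints, and Cfb overlaps in both.

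C1qa encodes the A chain of C1q. Its level in WT joints was 13.9, 14.0, 31.4 and 24.7 CPM in the 4 D0 mice and 98.0, 133.1, 111.4 and 63.5 CPM in the 4 D7 mice. In Trem2-/- joints it was 17.2, 33.2, 6.86 and 24.3 CPM at D0 and 75.4, 76.5, 61.9 and 88.2 CPM at D7. Every D7 library of either genotype was thus above every D0 library. The log2 fold change was 2.25 (SE 0.38, adjusted p = 0.00127) in WT and 2.02 (SE 0.38, adjusted p = 0.000448) in Trem2-/- joints.

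C1qc, the C chain gene, was measured at 12.1, 13.7, 30.2 and 24.2 CPM in WT D0 and 82.2, 116.8, 91.1 and 56.5 CPM in WT D7. The Trem2-/- libraries held 16.5, 27.9, 5.73 and 20.9 CPM at D0 and 64.2, 63.0, 53.9 and 74.98 CPM at D7. Library by library these values followed C1qa closely, and Trem2-/- D7 replicate 3 was the lowest D7 library, and Trem2-/- D0 replicate 3 the lowest D0 library, for both genes. The log2 fold change was 2.10 (SE 0.38, adjusted p = 0.00180) in WT and 1.97 (SE 0.38, adjusted p = 0.000559) in Trem2-/- joints.

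C1qb, the B chain gene, had the lowest counts of the 3. It held 3.17, 2.49, 5.63 and 5.88 CPM in WT D0 and 24.3, 25.4, 25.1 and 15.2 CPM in WT D7. In Trem2-/- joints it held 2.96, 7.64, 0.954 and 3.398 CPM at D0 and 18.3, 17.2, 16.2 and 22.6 CPM at D7. Groups of D0 and D7 did not overlap. C1qb rose by a log2 fold change of 2.18 (SE 0.35, adjusted p = 0.000993) in WT and 2.23 (SE 0.35, adjusted p = 0.000117) in Trem2-/- joints. For the 3 C1q genes and C3ar1, the 28 alternative settings run for both of these contrasts left each call in place.

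Transcripts of the A and C chains kept a near-constant proportion. Per kilobase of exon, C1qa stood at 1.89 to 2.27 times C1qc in all 16 libraries, although the level of C1qa itself ran from 6.86 to 133.1 CPM. C1qb stood at 0.289 to 0.535 times C1qc. On the log2(CPM + 1) scale, Pearson's r over the 16 libraries was 0.998 between C1qa and C1qc and 0.989 between C1qa and C1qb. After the group means were removed, r was 0.994 and 0.948. The next gene in likeness to C1qa among 10551 genes was Mrc1, the mannose receptor of tissue macrophages, with r = 0.963, or 0.815 within groups. These are descriptions, since libraries share the D0 and D7 grouping and their cell make-up.

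Macrophage markers did not move as a block with C1q. At D7, 19.3% of all genes were called higher and 18.2% lower in WT joints, and 26.5% and 27.9% in Trem2-/- joints. Of the 11 macrophage markers measured, 7 were called higher and 0 lower in WT joints. In Trem2-/- joints 3 of these markers were called higher, near the all-gene share, and 2 lower, below that share. Their summed level ranged over 981.6 to 1565 CPM in WT D0, 934.9 to 1658 in WT D7, 1069 to 1669 in Trem2-/- D0 and 812.7 to 960.7 in Trem2-/- D7, and Cd14, also present in neutrophils, was the largest part of the sum in each library. C1qa equalled 1.35% to 2.38% of that sum in WT D0 and 6.29% to 11.9% in WT D7. Relative to Adgre1, which encodes the F4/80 antigen of macrophages, C1qa ran from 45.6% to 78.5% in WT D0 and 94.3% to 144% in WT D7, whereas relative to Mrc1 it ran from 121.6% to 163.7% and 135.7% to 246.3%, which overlap. In both genotypes the share of C1qa did not overlap between D0 and D7 against the sum or Adgre1, and overlapped against Mrc1. No macrophage marker was at 0 in all 4 libraries of a group. Their part in the result was not tested beyond these ratios.

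C3ar1 encodes the receptor for C3a. It was measured at 7.71, 7.22, 14.6 and 16.2 CPM in WT D0 and 52.7, 49.4, 59.3 and 43.8 CPM in WT D7. In Trem2-/- joints the levels were 9.48, 7.64, 3.94 and 9.58 CPM at D0 and 30.8, 33.1, 28.9 and 34.4 CPM at D7. C3ar1 rose by a log2 fold change of 2.14 (SE 0.26, adjusted p = 0.000356) in WT and 1.98 (SE 0.26, adjusted p = 3.54e-05) in Trem2-/- joints, with no overlap in either. The genes most like it over the 16 libraries were Flrt3 (r = 0.965), Hpgds (r = 0.962), a prostaglandin D synthase, and Ms4a7 (r = 0.961), a macrophage membrane protein. Within groups these r values were 0.755, 0.802 and 0.773.

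C5ar1 encodes the receptor for C5a and moved the other way. Its WT levels were 215.4, 320.8, 370.03 and 209.6 CPM at D0 and 104.6, 159.4, 289.2 and 168.9 CPM at D7. Those in Trem2-/- joints were 433.7, 366.6, 377.8 and 254.4 CPM at D0 and 93.2, 102.1, 124.3 and 112.8 CPM at D7. In WT joints replicate 3 at D7 lay within the D0 range, and the log2 fold change of -0.68 (SE 0.26, adjusted p = 0.0646) met the study's rule but not the adjusted threshold. That call was lost when only WT libraries were fitted, without WT D7 replicate 1 (log2 fold change -0.45) and without WT D0 replicate 2 (-0.59) or 3 (-0.53). In Trem2-/- joints D0 and D7 did not overlap, and C5ar1 fell by a log2 fold change of 1.70 (SE 0.26, adjusted p = 0.000112).

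The 2 anaphylatoxin receptors thus moved in opposite directions, and the ratio between them changed with injury. Per kilobase of exon, C5ar1 stood at 21.6 to 74.4 times C3ar1 in WT D0 and 3.33 to 8.17 times in WT D7. The ratio was 44.5 to 161 in Trem2-/- D0 and 5.07 to 7.21 in Trem2-/- D7. It was lower in every D7 library than in any D0 library.

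Leukocyte markers moved with C5ar1. All 6 leukocyte markers, among them Ptprc, which encodes CD45, and Lcp1, were called lower at D7 in both genotypes. Their sum was 2818 to 5550 CPM in WT D0, 1587 to 3486 in WT D7, 3536 to 6129 in Trem2-/- D0 and 1243 to 1588 in Trem2-/- D7. C5ar1 equalled 6.10% to 7.64% of that sum in WT D0, 6.59% to 8.30% in WT D7, 6.56% to 7.56% in Trem2-/- D0 and 7.50% to 7.83% in Trem2-/- D7. Set against these markers, C5ar1 overlapped between D0 and D7 in both genotypes, although its CPM differed. Against the neutrophil sum it did not overlap in WT joints, at 1.03% to 1.46% in D0 and 1.95% to 2.20% in D7, and overlapped in Trem2-/- joints, at 0.849% to 1.76% and 1.67% to 2.15%. The 3 genes most like C5ar1 were the leukocyte genes Hcls1, Lcp1 and Fcer1g, with r from 0.993 to 0.994 over the 16 libraries and 0.973 to 0.979 within groups.

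C3, the central component, had the highest CPM of the set. It was measured at 681, 1017, 1047 and 658 CPM in WT D0 and 353, 379, 464 and 402 CPM in WT D7. The Trem2-/- libraries held 1687, 897, 1539 and 730.4 CPM at D0 and 285, 248, 403 and 251 CPM at D7. Every D7 library was below every D0 library. C3 fell by a log2 fold change of 1.06 (SE 0.26, adjusted p = 0.00872) in WT and 1.97 (SE 0.26, adjusted p = 3.77e-05) in Trem2-/- joints.

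Neutrophil markers moved with C3, as did monocyte and T and NK cell markers. Pearson's r with C3 over the 16 libraries was 0.969 for the neutrophil sum, 0.963 for monocyte and 0.945 for T and NK cell markers. It was 0.950 for the leukocyte sum, 0.618 for macrophage and -0.928 for fibroblast and synovial lining markers. All 10 neutrophil markers were called lower at D7 in both genotypes, with sums of 14740 to 33520 CPM in WT D0, 4753 to 14530 in WT D7, 15200 to 44520 in Trem2-/- D0 and 4460 to 7454 in Trem2-/- D7. Within Trem2-/- D0, replicates 1 and 3 had the highest C3 and the highest neutrophil sums, 40270 and 44520 CPM, beside 20850 and 15200 in replicates 2 and 4. Within WT D0, replicates 2 and 3 had the highest C3, with neutrophil sums of 31170 and 33520 CPM beside 14740 and 16130. C3 equalled 3.13% to 4.62% of the neutrophil sum in WT D0 and 3.19% to 7.42% in WT D7. In Trem2-/- joints it equalled 3.46% to 4.80% at D0 and 4.18% to 6.39% at D7. D0 and D7 thus overlapped, but only through WT D7 replicate 3 and Trem2-/- D7 replicate 4. The other D7 libraries lay above every D0 library of their genotype. Mean shares at D0 and D7 were 3.77% and 5.11% in WT, and 4.19% and 5.30% in Trem2-/- joints. The genes most like C3 over the 16 libraries were Scnn1a, Pilrb2 and Arid3a, each with r = 0.980.

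**Figure D2:**
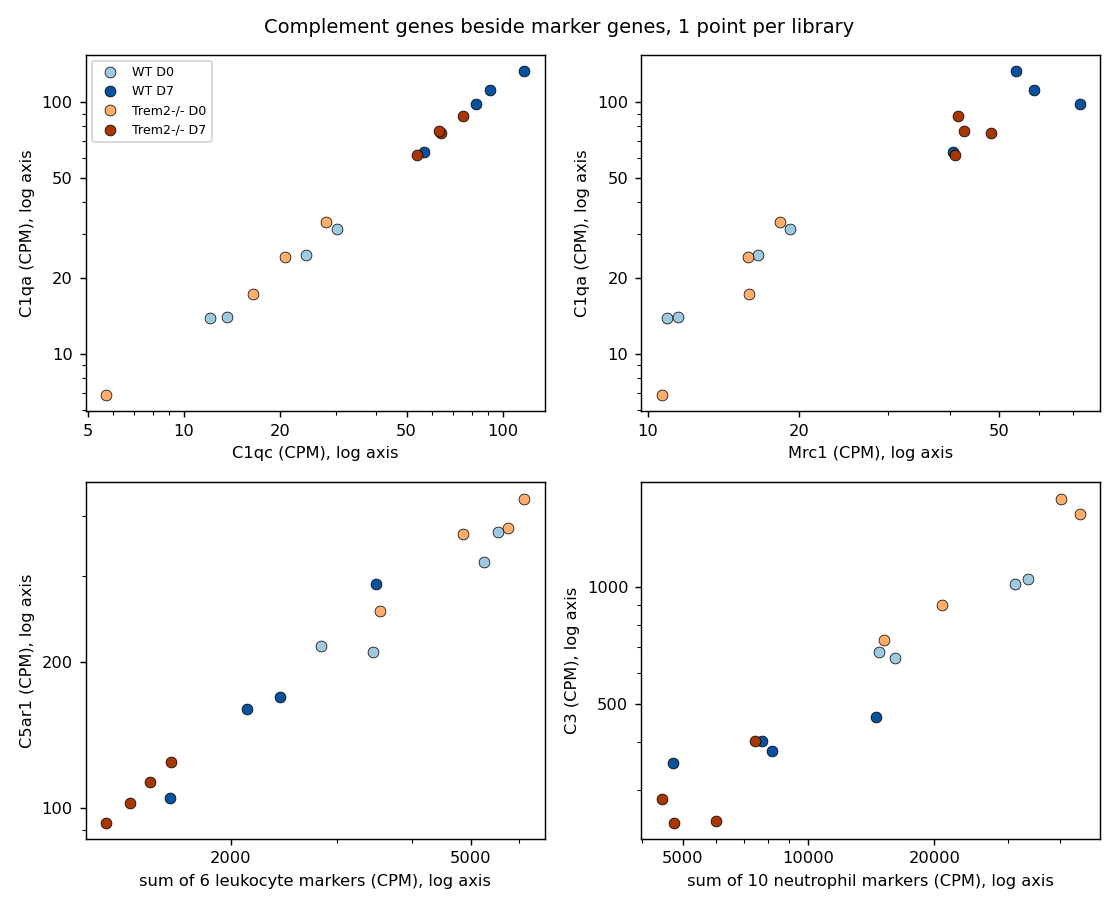
Complement genes (y axes, CPM, log scale) beside C1qc, the macrophage gene Mrc1, the sum of 6 leukocyte markers and the sum of 10 neutrophil markers (x axes, CPM, log scale), with 1 point per library coloured by group. C1qa stays at a near-constant proportion of C1qc, and most the D0 libraries lie at the upper right for C5ar1 and C3.

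Cfb, the protease of the alternative route, did not pass the test. Its WT levels were 94.2, 18.3, 51.0 and 63.3 CPM at D0 and 90.5, 65.9, 58.6 and 81.2 CPM at D7. In Trem2-/- joints they were 74.3, 51.4, 24.5 and 51.7 CPM at D0 and 68.3, 58.2, 85.1 and 83.8 CPM at D7. The D0 range held all 4 D7 libraries in WT and 2 of 4 in Trem2-/- joints. The log2 fold change was 0.57 (95% interval -0.26 to 1.41, adjusted p = 0.276) in WT and 0.63 (95% interval -0.21 to 1.46, adjusted p = 0.191) in Trem2-/- joints. Leaving out WT D0 replicate 1 turned Cfb into a call in WT joints (log2 fold change 0.88). Leaving out WT D0 replicate 2 did so in Trem2-/- joints, where the estimate stayed at 0.63. The genes most like Cfb were Slit3 (r = 0.946), Lama2 (r = 0.915), a basement membrane laminin, and Cxcl14 (r = 0.915), a chemokine, with r between 0.902 and 0.935 within groups. Of 10 fibroblast and synovial lining markers, 8 were called higher and 0 lower at D7 in WT and 9 higher and 0 lower in Trem2-/- joints. Cfb equalled 0.113% to 0.405% of their sum in WT D0 and 0.0578% to 0.0937% in WT D7, and 0.281% to 0.564% and 0.0453% to 0.0789% in Trem2-/- joints. Most of that sum at D7, 81.9% to 91.3% in each library, came from the 3 collagen genes Col1a1, Col1a2 and Col3a1, beside 34.1% to 79.2% at D0. The 3 markers with the smallest log2 fold changes in WT joints were Dcn (0.22, not called), Pdpn (0.87) and Pdgfrb (0.91). The other markers ran from 1.01 for Prg4 to 2.85 for Col1a1. In Trem2-/- joints Dcn, Pdpn and Pdgfrb were at 0.79, 1.29 and 1.21, beside 0.63 for Cfb.

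Levels of different genes were compared per kilobase of exon. In WT D0, C3 (165 ± 40.9 CPM per kilobase, SD, n = 4) and C5ar1 (109 ± 30.9) stood first and overlapped. They were followed by C1qa (20.2 ± 8.25) and Cfb (20.1 ± 11.1), then C1qc (10.4 ± 4.49), which overlapped both, and C1qb (3.95 ± 1.58) and C3ar1 (2.66 ± 1.08), which overlapped each other. In WT D7, C1qa came first (97.6 ± 28.1), followed by C3 (77.6 ± 9.21), C5ar1 (70.2 ± 30.3) and C1qc (44.9 ± 12.9), with overlap between each neighbouring pair. Cfb (26.2 ± 5.11) overlapped both C1qc and C1qb (20.7 ± 4.49), and C3ar1 was last (11.9 ± 1.51), below every C1qb library. The order of the means in Trem2-/- joints was the same as in WT joints at each time. By group mean, C1qa stood behind C3 and C5ar1 at D0 and ahead of both at D7 in both genotypes. Single D7 libraries differed from this order. C1qa was at 61.1 CPM per kilobase beside 78.1 for C3 and 65.7 for C5ar1 in WT D7 replicate 4. It was at 107.1 beside 112.5 for C5ar1 in WT D7 replicate 3. In Trem2-/- D7 replicate 3 it was at 59.5 beside 78.3 for C3.

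**Figure D3:**
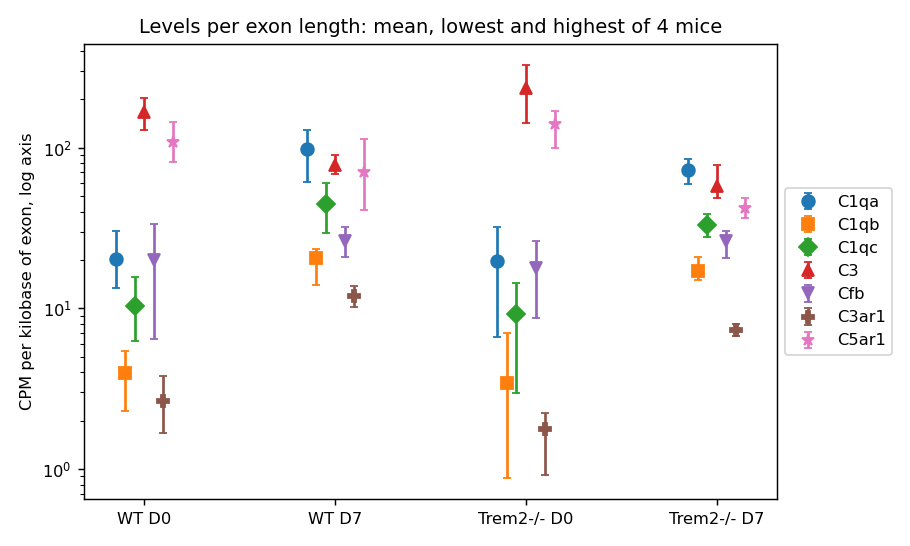
CPM per kilobase of exon (y axis, log scale) of each complement gene in the 4 groups (x axis), with the mean as a symbol and the lowest and highest of 4 mice as bars. C3 and C5ar1 have the highest means at D0, and C1qa has the highest mean at D7. There its range overlaps that of C3 in both genotypes and that of C5ar1 in WT joints.

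The next comparison asked whether loss of Trem2 altered the members in injured joints. In Trem2-/- D7 libraries C3ar1 and C5ar1 were called lower than in WT D7, where 4.53% of all genes tested were called lower and 1.18% higher, and no member was called higher. With limma no member passed an adjusted p below 0.05, 2 had an unadjusted p below 0.05, and edgeR and DESeq2 each called 2 by the same rule. The log2 fold changes of 6 members lay between -0.67 and -0.25, and that of Cfb was near 0 and changed sign between settings. The median of the 7 was -0.39, beside 0.01 over all genes.

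C3ar1 averaged 51.3 CPM ± 6.48 (SD, n = 4) in WT D7 and 31.8 ± 2.43 in Trem2-/- D7. The groups did not overlap, as for 8.33% of all genes, and the log2 fold change was -0.67 (SE 0.26, adjusted p = 0.611). Without WT D7 replicate 3 it was -0.60 and no longer called. Adgre1, a macrophage marker, was also lower in Trem2-/- D7, at 60.0 CPM beside 87.2 CPM, and 4 of the 11 macrophage markers were called lower and 0 higher. C3ar1 equalled 53.4% to 65.0% of Adgre1 in WT D7 and 49.8% to 58.3% in Trem2-/- D7, and 72.9% to 108% and 64.1% to 83.1% of Mrc1, ranges that overlap.

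C5ar1 averaged 180.5 CPM ± 77.8 in WT D7 and 108 ± 13.4 in Trem2-/- D7, with WT D7 replicate 1 inside the Trem2-/- range. The log2 fold change was -0.65 (SE 0.26, adjusted p = 0.615). The call was lost without WT D7 replicate 3 (log2 fold change -0.39), the library with the highest C5ar1 and the highest leukocyte sum of its group, and without Trem2-/- D7 replicate 1 (-0.58) or 2 (-0.62). All 6 leukocyte markers were called lower in Trem2-/- D7, none by adjusted p, and C5ar1 as a share of their sum overlapped between the genotypes.

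The C1q genes did not pass the test between genotypes at D7. C1qa averaged 101.5 CPM ± 29.2 in WT and 75.5 ± 10.8 in Trem2-/- joints, a log2 fold change of -0.38 (95% interval -1.18 to 0.41). For C1qc it was -0.39 (95% interval -1.20 to 0.41) and for C1qb -0.25 (95% interval -0.98 to 0.49). These intervals hold both no difference and a loss of more than 1.5-fold. C3 differed by -0.45 (95% interval -0.998 to 0.10), and was called when the 8 D7 libraries alone were fitted and without Trem2-/- D7 replicate 3 (-0.61). Cfb averaged 74.1 CPM ± 14.4 and 73.9 ± 12.9, and its log2 fold change had a 95% interval of -0.83 to 0.83.

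In uninjured joints no member was called between genotypes, where 0.782% of all genes were called higher and 1.37% lower. Neither limma nor edgeR gave a member an unadjusted p below 0.05 with the required fold, and DESeq2 gave 1, C3ar1 (log2 fold change -0.59). With limma C3ar1 differed by -0.51 (95% interval -1.05 to 0.04), C3 by 0.46 (95% interval -0.09 to 1.01) and C5ar1 by 0.38 (95% interval -0.18 to 0.94). Leaving out single mice turned C3ar1 into a call in 4 of 16 fits, and C3 or C1qb in 1 each. The 3 C1q genes had log2 fold changes between -0.29 and -0.15, and Cfb of -0.05.

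The difference between genotypes in the response to injury was tested as an interaction. C3 and C5ar1 were called, both with a more negative response in Trem2-/- joints, where 5.02% of all genes were called in that direction and 2.77% in the other. The interaction was -0.91 for C3 (SE 0.36, adjusted p = 0.579) and -1.02 for C5ar1 (SE 0.37, adjusted p = 0.579). For C3 the genotype means differed in opposite directions at D0 and D7, but neither difference was called on its own. The means were 851 CPM in WT D0 and 1213 in Trem2-/- D0, and 399 in WT D7 and 297 in Trem2-/- D7. The interaction call for C3 was lost without WT D0 replicate 4 (-0.79), Trem2-/- D7 replicate 2 (-0.83) or Trem2-/- D0 replicate 1 (-0.72) or 3 (-0.76). For C5ar1 the means were 279 and 358 CPM at D0 and 180.5 and 108 CPM at D7, and the call held in the 27 alternative fits that kept the study's rule. The leukocyte markers had the same direction, with 6 of 6 called negative in the interaction, and 1 of 10 neutrophil markers was.

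No interaction was called for the C1q genes, Cfb or C3ar1. The estimates were -0.24 for C1qa (95% interval -1.37 to 0.89), 0.05 for C1qb (95% interval -0.996 to 1.09), -0.14 for C1qc (95% interval -1.27 to 0.9999), 0.05 for Cfb (95% interval -1.13 to 1.23) and -0.16 for C3ar1 (95% interval -0.93 to 0.61). The sign of the C1qb estimate turned negative with a pseudocount of 5 and with edgeR or DESeq2.

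**Figure D4:**
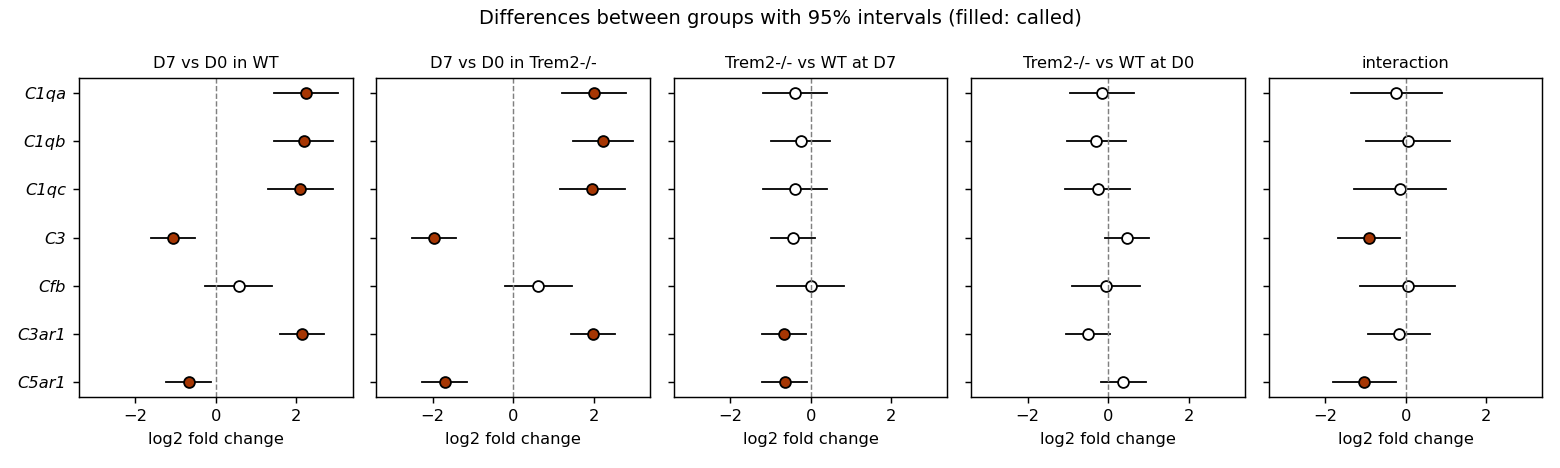
Log2 fold change with 95% interval (x axis) of each complement gene (y axis) in the 4 comparisons and the interaction, from limma on log2(CPM + 1). Filled points met the study's rule. After injury 6 of 7 genes have filled points in each genotype, whereas the genotype comparison at D7 and the interaction had 2 filled points each and D0 had none.

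Of 51 further complement genes listed by pathway class, 27 were examined and 26 passed the filter on low values. At D7 in WT joints 2 were called higher and 7 lower, and in Trem2-/- joints also 2 higher and 7 lower. Beside the all-gene shares of 19.3% higher and 18.2% lower in WT and 26.5% and 27.9% in Trem2-/- joints, 2 of 26 is below the share called higher in both genotypes, and 7 of 26 is above the share called lower in WT and near that in Trem2-/- joints. Their median log2 fold changes were -0.29 and -0.28. The medians of the members, 2.10 and 1.97, are the values of C1qc, 1 of the 3 C1q genes that moved together. Both lists were chosen with earlier results of these data known, so no contrast is drawn from these medians. Between genotypes at D7, 1 was called higher and 3 lower, where 1.18% of all genes were called higher and 4.53% lower. At D0 none was called with limma, edgeR or DESeq2, where limma called 0.782% of all genes higher and 1.37% lower. In the interaction 1 was called positive and 2 negative, beside 2.77% and 5.02% of all genes.

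In the classical class, the members' neighbour C2, the protease paired with C4, averaged 19.0 CPM in WT D0 and 21.7 in WT D7 and C1rl, related to the C1r protease, 7.61 and 6.92, and neither passed in any comparison. In the lectin class, Colec12, a scavenger receptor with a collectin domain, rose from 94.2 to 184 CPM in WT joints (log2 fold change 1.15, SE 0.33, adjusted p = 0.0199) and from 62.4 to 205 CPM in Trem2-/- joints (1.72, SE 0.33, adjusted p = 0.000584). Masp1, a lectin pathway protease, was called higher at D7 in both genotypes, at 2.47 and 5.27 CPM in WT and 1.73 and 9.47 CPM in Trem2-/- joints, and was the gene called higher in Trem2-/- D7 than in WT D7 (0.81, SE 0.28, adjusted p = 0.558). Fcnb, a ficolin of myeloid cells, fell with injury in WT (log2 fold change -1.86, SE 0.54, adjusted p = 0.0197) and Trem2-/- joints (-2.57, SE 0.54, adjusted p = 0.00107), as did the neutrophil markers.

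In the alternative class, Cfp, which encodes properdin, a stabiliser of the C3 convertase made by neutrophils and other myeloid cells, fell from 88.2 to 43.7 CPM in WT (adjusted p = 0.0122) and from 110.3 to 31.6 CPM in Trem2-/- joints (adjusted p = 8.40e-05). Cfd, the protease that cleaves Cfb, was called lower in WT joints at 6.08 and 2.23 CPM, without passing the adjusted threshold. The terminal component gene C7 was called lower in Trem2-/- joints, at 108 and 11.2 CPM (log2 fold change -3.28, SE 0.80, adjusted p = 0.00318), although D0 and D7 libraries overlapped. In WT joints it was 80.4 and 36.6 CPM (-1.70, SE 0.80, adjusted p = 0.117), not called, and no interaction was called. Among regulators, Clu, which encodes clusterin, was called lower in WT joints at 1215 and 464 CPM (adjusted p = 0.0987), with D0 libraries between 359 and 1936 CPM. Serping1, the inhibitor of the C1 proteases, did not pass, at 281 and 306 CPM.

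Among the 6 further receptor genes tested, 2 were called lower and 0 higher at D7 in WT joints, and 3 lower and 0 higher in Trem2-/- joints. Over all genes, 18.2% were called lower and 19.3% higher in WT joints, and 27.9% and 26.5% in Trem2-/- joints. Itgb2, the shared chain of complement receptors CR3 and CR4, averaged 552 CPM in WT D0, 340.4 in WT D7, 670 in Trem2-/- D0 and 194 in Trem2-/- D7. It was called lower at D7 in both genotypes, lower in Trem2-/- than WT at D7 (log2 fold change -0.76, SE 0.26, adjusted p = 0.558) and negative in the interaction (-1.05, SE 0.37, adjusted p = 0.579). C5ar2, the second C5a receptor gene, averaged 12.7, 8.80, 16.9 and 4.50 CPM in the same order and was called in the same comparisons except WT D7 against D0. Cd93, once named as a C1q receptor and abundant in endothelium, averaged between 431 and 497 CPM in the 4 groups and passed in no comparison. Vsig4, a complement receptor of macrophages, was not called after injury, at 5.37 and 11.8 CPM in WT (log2 fold change 1.01, SE 0.52) and 6.86 and 5.01 CPM in Trem2-/- joints (-0.28, SE 0.52), and is named here after its values were seen.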

How the data were processed

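RNA of 16 libraries, 4 in each group, was sequenced as 75-base reads. The authors used STAR for alignment to mm10, featureCounts for read counts per gene and, for scaling, the TMM factors of edgeR. Versions, annotation and strand setting are not given in the sources used here. The deposited values are this TMM-normalised signal in CPM. Whole reads were recovered from the step between low values in each library, and 100% of values came out whole within 0.1 read. No 2 replicates were alike within counting error (lowest chi-square divided by its degrees of freedom 10.43). Reads per library, 11567073 to 32867818, make 3 reads worth 0.101 to 0.250 CPM.

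Groups came from the genotype and injury labels. Replicates are numbered in the labels, and p-values measure the spread between these samples. One group factor was fitted with limma 3.58.1 (lmFit, eBayes with trend; R 4.3.3) on log2(CPM + 1) over 13173 genes that reached 1 CPM in 4 or more libraries, 1 repeated gene being counted once. All 4 groups shared 1 estimate of the spread, and the fit was tested on simulated data. The 30 alternatives included other pseudocounts, filters and scalings, edgeR 4.0.16 and DESeq2 1.42.0 on recovered reads, a replicate block and leaving out each mouse. Genes were called at an unadjusted p below 0.05 where the larger level exceeded the smaller by more than 25%, and the adjusted p stands beside it.

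The members, the 51 further complement genes and the 14 marker lists were chosen with earlier results of these data known. Named genes were the members, Trem2, the 2 most abundant further genes of each class, the 2 called genes per direction and comparison with the largest change, and the 3 genes most correlated with each member among those with a mean of at least 5 CPM. Ratios of members to markers were chosen after the values were seen. Levels between genes were divided by exon length from GENCODE M21. Comparisons share groups, so their results are not independent.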

Additional observations from a re-analysis of the deposited data

Results flagged for a closer look

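Within groups, 84 sets of 4 mice were examined for a mouse far from its group (Dixon's ratio of the gap to the range, limit 0.829). In 4 of them 1 mouse stood apart, and chance gives about 1 in 20. C1qb in WT D7 replicate 4 was 15.2 CPM beside 24.3 to 25.4 CPM in the other mice (ratio 0.895), the mouse of its group that was also lowest for C1qa and C1qc. C7 in WT D7 replicate 1 was 106.7 CPM beside 8.97 to 16.1 CPM (ratio 0.927). Fcnb in Trem2-/- D7 replicate 3 was 26.4 CPM beside 12.2 to 14.6 CPM (ratio 0.833), and Cfd in Trem2-/- D0 replicate 4 was 14.5 CPM beside 3.10 to 4.93 CPM (ratio 0.840).

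The effect of genotype at D7 minus that at D0 was called for 5 genes named here, on the log2 scale with limma, and none passed the adjusted threshold (adjusted p = 0.579 for each). It was -0.91 for C3, -1.02 for C5ar1, -1.05 for Itgb2 and -1.20 for C5ar2, and 1.04 for Masp1.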

How the results depend on the processing

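For each member, 28 alternative fits of a comparison between groups, or 27 of the interaction, were set beside the values above. The calls on the C1q genes, C3 and C3ar1 after injury, and on C5ar1 in Trem2-/- joints, held in all of them with the same direction. Between genotypes at D7, leaving out 1 mouse gave 0 to 3 called members, with 0 without WT D7 replicate 3 and 1 without Trem2-/- D7 replicate 1 or 2, and the adjusted threshold gave 0. At D0, DESeq2 called 1 member and leaving out 1 mouse gave 0 to 2, the latter without Trem2-/- D0 replicate 4. In the interaction leaving out 1 mouse gave 1 to 2 called members and the adjusted threshold 0. Of the further complement genes at D7, a mean of at least 5 CPM left 2 called and the adjusted threshold 0, and at D0 leaving out 1 mouse gave 0 to 1. In the interaction, edgeR and DESeq2 each called 5, leaving out 1 mouse gave 3 to 6 and the adjusted threshold gave 0. Some of these fits held fewer mice or genes, and the cause of the changes was not tested.

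Signs turned only for members that were not called. Cfb at D7 between genotypes was 0.00439 with median-of-ratios scaling and 0.00139 with DESeq2, and C1qb in the interaction was -0.086 with a pseudocount of 5, -0.082 with edgeR and -0.066 with DESeq2. Over fits that each left out 1 mouse, Cfb ran from -0.10 to 0.11 at D7, -0.51 to 0.26 at D0 and -0.26 to 0.51 in the interaction. At D0 the range was -0.44 to 0.27 for C1qa, -0.65 to 0.068 for C1qb and -0.53 to 0.17 for C1qc. In the interaction it was -0.66 to 0.052 for C1qa, -0.31 to 0.40 for C1qb, -0.57 to 0.13 for C1qc and -0.41 to 0.012 for C3ar1.

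Over all genes, 753 calls between genotypes at D7 split into 20.7% higher, or 33.3% with quantile scaling, and those at D0 into 36.4%, or 23.4% with edgeR. The D7 count was 1366 with only those groups fitted, 340 at a fold above 1.5 and 480 to 1123 with 1 mouse left out. The D0 count of 283 was 164 with a pseudocount of 5, 149 with only those groups, 466 with edgeR, 547 with DESeq2, 131 at a fold above 1.5 and 107 to 1231 with 1 mouse left out. The interaction count of 1026 was 635 at a fold above 1.5 and 609 to 2236 with 1 mouse left out, and all 3 were 0 by adjusted p. In WT joints after injury 4933 calls became 2985 at a fold above 1.5. Same-numbered samples had correlated deviations from -0.509 to 0.406 in 24 pairs, 11 of them over 0.1, so that the numbers were not taken as pairs. With a replicate block, 6 members were called at D7 in each genotype, 2 between genotypes at D7, 0 at D0 and 2 in the interaction, the same counts as without it. Depth limits C1qb most, since its lowest library held 0.954 CPM.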
